A study of Mus musculus with 18 samples.

Results

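The 8 genes described here are the sodium-phosphate cotransporters *Slc34a1*, *Slc34a2*, *Slc20a1* and *Slc20a2*, the phosphate exporter *Xpr1*, the FGF23 co-receptor *Kl* (Klotho) and the FGF receptors *Fgfr1* and *Fgfr3*. They were taken by gene name from the 55401 genes of the deposited tables and all 8 were found. They were proposed with earlier results of these pools known, and the measured values they were chosen by are not recorded. Their levels and fold changes are therefore given as a description, without p-values.

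The series compared thick ascending limbs of the loop of Henle (TAL) from *Cldn10* conditional knock-out mice (cKO) and their littermates, in the cortex (CTAL) and in the medulla (MTAL). Claudin-10 is a tight junction protein that lets sodium pass between the cells of this segment. All groups were adult males, labelled C57BL/6J and described in the study's methods as mostly of C57BL/6 background, that carried *Cldn10* fl/fl, also the littermates, which are called WT. The cKO mice carried in addition Ksp-Cre, in which the Ksp-cadherin promoter drives Cre in the distal nephron and not in the TAL alone. No other treatment was given. Each pool held tubules dissected by hand from a single kidney of a distinct animal. There were 5 pools of WT CTAL, 5 of cKO CTAL, 5 of WT MTAL and 3 of cKO MTAL, whose dissection was hampered by nephrocalcinosis. Pools are named below by their labelled numbers, which are 1, 3, 8, 10 and 22 for WT CTAL, 2, 4, 7, 9 and 21 for cKO CTAL, 11, 13, 15, 17 and 19 for WT MTAL, and 16, 18 and 20 for cKO MTAL, and values are given in these orders.

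Total counts ranged from 10824299 to 62339939 per pool. Levels are CPM, read counts scaled to a common library size with TMM factors over the 18 pools. *Cldn10* was at 384 to 579 CPM in WT CTAL, 156 to 185 CPM in cKO CTAL, 653 to 810.3 CPM in WT MTAL and 151 to 295 CPM in cKO MTAL, so that its deletion was partial. *Slc12a1*, the salt cotransporter that defines the TAL, lay between 11424 and 16145 CPM in every pool. The labels of WT CTAL pool 1 conflict, since the code in its title says WT, while the words of its title and its genotype field say knock-out. It was used as WT, and *Cldn10* was at 446 CPM there. *Xist*, which female cells express, was at 6.50 to 8.77 CPM in 7 pools and at most at 0.738 CPM in the other 11, although the study describes male mice and Y-linked genes were expressed in all 18 pools. These 7 pools were WT CTAL 3 and 22, cKO CTAL 2 and WT MTAL 11, 15, 17 and 19, and no pool of cKO MTAL was among them. Results are therefore also given without them. WT MTAL then keeps pool 13 alone, whose spread has to be taken from the other group.

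Inorganic phosphate is filtered in the glomerulus and reclaimed mostly in the proximal tubule by NaPi-IIa, the product of *Slc34a1*. FGF23, a hormone from bone, binds FGF receptors together with Klotho and lowers this reabsorption, and parathyroid hormone (PTH) acts in the same direction. Klotho is made mainly by distal parts of the nephron, and its shed ectodomain circulates. NaPi-IIb, the product of *Slc34a2*, is best known from intestine and lung. PiT-1 and PiT-2, the products of *Slc20a1* and *Slc20a2*, are widely expressed cotransporters, and XPR1 carries phosphate out of cells.

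*Slc34a2* and *Kl* were the members whose levels moved together most closely over the pools, and the 250 bases before their annotated starts are shown for that reason. The sequences and starts are those of RefSeq on GRCm38.p6, the build also called mm10, whose promoter table held 6 of the 8 genes. Capitals mark matches, on either strand, to 5 motifs. The first 2 were forms of the TATA box, TATAAA and a variant, TATATA, which was added after the *Slc34a2* sequence had been read. The others were the CCAAT box, the GC box, whose letters are GGGCGG, and the core of many nuclear receptor sites, whose letters are AGGTCA. *Slc34a2*, plus strand, chr5:53049103-53049352, and *Kl*, plus strand, chr5:150952357-150952606, read 5′ to 3′:
Slc34a2: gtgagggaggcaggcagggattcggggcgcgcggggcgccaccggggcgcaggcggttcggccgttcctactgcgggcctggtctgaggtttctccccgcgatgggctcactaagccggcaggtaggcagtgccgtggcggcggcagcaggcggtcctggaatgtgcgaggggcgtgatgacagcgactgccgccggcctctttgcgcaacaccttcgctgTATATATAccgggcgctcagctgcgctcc
Kl: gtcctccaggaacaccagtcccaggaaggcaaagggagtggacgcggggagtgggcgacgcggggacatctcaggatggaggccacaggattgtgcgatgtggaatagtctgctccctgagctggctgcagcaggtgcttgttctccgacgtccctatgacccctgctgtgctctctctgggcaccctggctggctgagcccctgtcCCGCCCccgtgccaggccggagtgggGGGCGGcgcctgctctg

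The *Slc34a2* window held 2 overlapping copies of TATATA, the first of which begins 29 bases before the start, and no match to the other motifs. The *Kl* window held GGGCGG in 2 places, 17 bases before the start on the plus strand and 43 bases before it on the minus strand, and no match to the others. Of 32851 windows of the same length, 5.2% held TATATA and 32.7% held GGGCGG, against 12.4% for TATAAA, 33.8% for CCAAT and 14.0% for AGGTCA. GC content was 69.6% for *Slc34a2* and 66.8% for *Kl*, where the median window had 52.4%. The windows thus shared a high GC content and none of the motifs searched. The RefSeq start of *Slc34a2* at base 53049353 lies inside the gene as GENCODE vM21 gives it (chr5:53038081-53071664), where a longer transcript starts upstream. *Kl* spans chr5:150952607-150993817. These matches are descriptions of the letters and no measurement of binding was made.

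*Slc34a2*, which encodes NaPi-IIb, showed the widest differences of the 8 genes between MTAL of the 2 genotypes. In WT MTAL it was at 14.0, 13.4, 7.84, 10.1 and 7.87 CPM. In cKO MTAL it was at 42.7, 77.5 and 122 CPM. Each cKO MTAL pool was above each WT MTAL pool, and the cKO MTAL pools spread over a wide range. The group means were 80.8 ± 39.8 (SD, n = 3) and 10.6 ± 2.94 CPM (SD, n = 5), which is 2.93 (SE 0.28) as a log2 fold change. Without the pools with *Xist* it was 2.59 (SE 0.57), resting on pool 13 as the single WT MTAL pool.

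**Figure D1:**
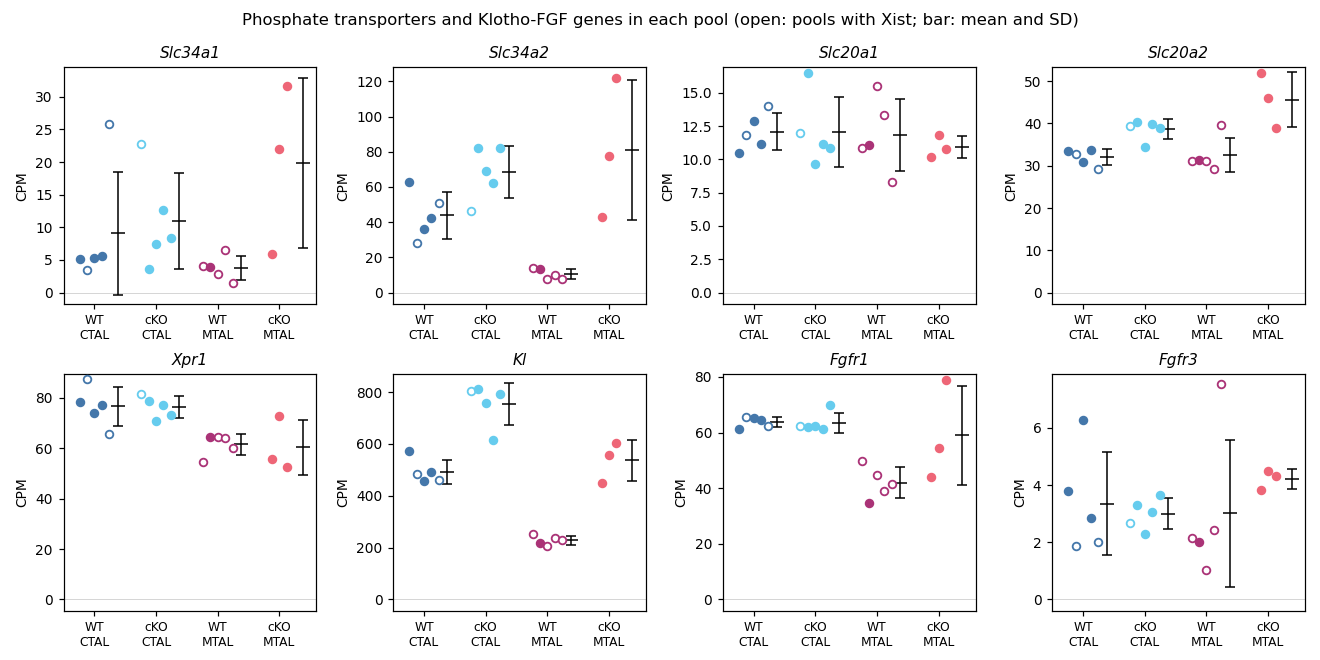
Level of each of the 8 genes in CPM (y axis, linear) in every pool of the 4 groups (x axis). Each dot is a pool, open dots are the 7 pools with *Xist*, and the black bar gives the mean and SD of the group. *Slc34a2* and *Kl* are lowest in WT MTAL, where no pool exceeds 14.0 and 253 CPM, while the groups of *Slc20a1* overlap.

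In CTAL the levels of *Slc34a2* were higher to begin with. In WT CTAL they were 62.8, 28.1, 36.0, 42.2 and 50.9 CPM, and in cKO CTAL 46.6, 82.3, 69.2, 62.4 and 82.1 CPM. These groups overlapped. The log2 fold change of cKO CTAL over WT CTAL was 0.62 (SE 0.19), and it was 0.78 without pool 1 of WT CTAL, the pool with conflicting labels. WT MTAL lay below WT CTAL by a log2 fold change of -2.05 (SE 0.22), and these groups did not overlap. cKO MTAL overlapped both CTAL groups, with a log2 fold change of 0.28 (SE 0.28) over cKO CTAL and of 0.88 (SE 0.29) over WT CTAL. The order of the means was thus WT MTAL, WT CTAL, cKO CTAL and cKO MTAL, and in this order the lowest group alone was separate from its neighbour. The genotype difference was larger in MTAL than in CTAL by 2.29 on the log2 scale (SE 0.37) in a fit of all 18 pools.

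*Slc34a1*, which encodes NaPi-IIa of the proximal tubule, was near the detection filter in most pools. Its levels were 5.10, 3.39, 5.33, 5.63 and 25.9 CPM in WT CTAL and 22.7, 3.56, 7.51, 12.7 and 8.32 CPM in cKO CTAL. In WT MTAL it was at 4.04, 3.90, 2.85, 6.54 and 1.503 CPM, and in cKO MTAL at 5.88, 22.02 and 31.6 CPM. Every pair of groups overlapped, and the highest levels, at 22.02 CPM or more, were those of WT CTAL pool 22, cKO CTAL pool 2 and cKO MTAL pools 18 and 20. The log2 fold change of cKO MTAL over WT MTAL was 2.39 (SE 0.47), that of cKO CTAL over WT CTAL 0.26 (SE 0.53) and that of WT MTAL relative to WT CTAL -1.26 (SE 0.51). Without WT CTAL pool 22 the last value became -0.37, and the difference between the CTAL groups 1.15.

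The pools in which *Slc34a1* was high were those in which proximal tubule markers were high. The 16 markers of that segment, a list without *Slc34a1*, summed to 148 to 385 CPM in WT CTAL, 118 to 827 CPM in cKO CTAL, 107 to 186 CPM in WT MTAL and 180.2 to 818 CPM in cKO MTAL. The sum was highest in cKO CTAL pool 2, cKO MTAL pool 18, WT CTAL pool 22, cKO CTAL pool 9 and cKO MTAL pool 20, and in these 5 pools *Slc34a1* also took its 5 highest levels. Of the defining markers, *Slc5a2*, the glucose cotransporter of the early proximal tubule, did not exceed 3.70 CPM and *Slc2a2* did not exceed 0.889 CPM in any pool. With a term for the log2 of the summed markers in a fit of all 18 pools, a setting chosen after these values had been seen, the log2 fold change of *Slc34a1* in MTAL was 0.90 (SE 0.49), while that of *Slc34a2* was 2.96 (SE 0.34) and that of *Kl* 1.204 (SE 0.13). With the same term for the 6 principal cell markers, which summed to 93.2 to 966 CPM in cKO MTAL and 50.9 to 302 CPM in WT MTAL, these values were 1.80, 2.76 and 1.19. That of *Fgfr1* was 0.32 (SE 0.13) with this term. The sum of 966 CPM was that of cKO MTAL pool 20, where pools 16 and 18 were at 96.7 and 93.2 CPM. In pooled tubules a smaller number of cells of a type and less RNA per cell cannot be told apart.

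**Figure D2:**
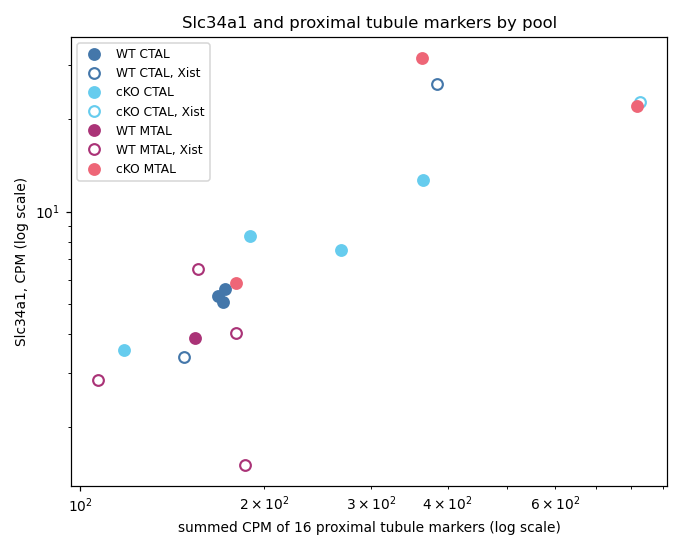
*Slc34a1* level in CPM (y axis, log scale) against the summed CPM of 16 proximal tubule markers (x axis, log scale). Each dot is 1 of the 18 pools, coloured by group, and open dots are the pools with *Xist*. The 5 pools with the highest marker sums, 363 to 827 CPM, are also the 5 with *Slc34a1* at 12.7 CPM or more.

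Of the remaining transporters, *Slc20a1* differed little between the groups. *Slc20a1*, which encodes PiT-1, had means of 12.1 ± 1.39 (SD, n = 5), 12.03 ± 2.63 (SD, n = 5), 11.8 ± 2.70 (SD, n = 5) and 10.9 ± 0.835 CPM (SD, n = 3) in WT CTAL, cKO CTAL, WT MTAL and cKO MTAL. All groups overlapped, and the 5 log2 fold changes lay between -0.14 and -0.02 with SEs of 0.16 to 0.27. The genes closest to it by Pearson r of log2 levels over the 18 pools were *Prpf38b* (0.81), *Morn4* (0.77) and *Zswim6* (0.76).

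*Slc20a2*, which encodes PiT-2, was at 33.5, 32.8, 31.0, 33.6 and 29.3 CPM in WT CTAL and at 39.5, 40.4, 34.5, 39.8 and 38.9 CPM in cKO CTAL. Each cKO CTAL pool was above each WT CTAL pool, by a narrow gap, and the log2 fold change was 0.26 (SE 0.08). In WT MTAL it was at 31.1, 31.5, 31.0, 29.3 and 39.7 CPM and in cKO MTAL at 51.8, 46.0 and 38.8 CPM. Here WT MTAL pool 19 reached into the cKO range, and the log2 fold change was 0.49 (SE 0.16). The cKO MTAL pools were all above the WT CTAL pools, with a log2 fold change of 0.52 (SE 0.13), and overlapped with cKO CTAL. WT MTAL and WT CTAL differed by 0.02 (SE 0.11) on the log2 scale. The genes closest to *Slc20a2* by r were *Icmt* (0.85), *Sfn* (0.84) and *Cfl1* (0.84). Reads of *Slc20a2* (chr8:22476788-22569612) may be shared with *Smim19* on the other strand, which was at 13.5 to 20.5 CPM, and with *Gm17491* in an intron on the same strand, at 1.401 to 9.75 CPM, since the strand setting of the counting was not given in the sources used here.

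*Xpr1*, the exporter, lay lower in WT MTAL than in WT CTAL. It was at 78.3, 87.5, 74.1, 77.3 and 65.8 CPM in WT CTAL and at 54.8, 64.4, 64.4, 64.2 and 60.3 CPM in WT MTAL, without overlap, and WT MTAL differed from WT CTAL by a log2 fold change of -0.31 (SE 0.09). In cKO CTAL it was at 81.5, 78.9, 71.0, 77.2 and 73.3 CPM and in cKO MTAL at 55.8, 72.8 and 52.6 CPM, where pool 18 overlapped with cKO CTAL. The genotype differences were -0.02 (SE 0.14) in MTAL and -0.01 (SE 0.08) in CTAL on the log2 scale. The segment difference was not past the adjusted threshold of the edgeR fit, nor in 20 of 25 alternative settings. The genes closest to *Xpr1* by r over the pools were *C1qc* (0.90), *P2rx4* (0.87) and *Heph* (0.86). *C1qc* encodes a complement chain made by macrophages, and its partners *C1qa* and *C1qb* had means of 9.68 ± 1.55 and 9.63 ± 1.44 CPM (SD, n = 5) in WT CTAL, and of 4.90 ± 1.70 and 4.92 ± 1.85 CPM (SD, n = 5) in WT MTAL. *Csf1r*, also an immune cell marker, went the other way, with means of 19.4 ± 3.97 and 33.4 ± 9.07 CPM (SD, n = 5) in these groups. Of the 5 immune cell markers tested between them, 1 was higher and 2 were lower in WT MTAL by edgeR. The summed CPM of the 7 immune cell markers was 58.5 to 71.4 in WT CTAL and 46.5 to 78.5 in WT MTAL. Their part in the level of *Xpr1* was not tested.

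*Kl*, which encodes Klotho, was by far the most abundant of the 8 genes. Per transcript length, its mean was 129 TPM, a unit corrected for transcript length, in WT CTAL, 215 TPM in cKO CTAL, 56.6 TPM in WT MTAL and 153 TPM in cKO MTAL. The next highest mean of a member in WT CTAL was 25.0 TPM, for *Fgfr1*. TPM of the same gene per CPM varied between pools, from 0.232 to 0.324 for *Kl* and from 0.291 to 0.794 for *Fgfr1*, so that TPM was used to compare genes and CPM to compare pools.

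*Kl* was at 573, 484, 456, 490.2 and 459 CPM in WT CTAL and at 803, 812, 756, 615 and 793 CPM in cKO CTAL. The lowest cKO CTAL pool was above the highest WT CTAL pool, and the log2 fold change was 0.61 (SE 0.09). In WT MTAL it was at 253, 218, 208, 238 and 229 CPM, and in cKO MTAL at 448, 556 and 605 CPM. The MTAL groups were also separate, with a log2 fold change of 1.23 (SE 0.12). WT MTAL lay below WT CTAL by -1.10 (SE 0.08) on the log2 scale without overlap. cKO MTAL lay below cKO CTAL by -0.46 (SE 0.13), again without overlap, and overlapped with WT CTAL, over which its log2 fold change was 0.13 (SE 0.11). The order of the means was WT MTAL, WT CTAL, cKO MTAL and cKO CTAL, and the middle pair alone was not separate. The genotype difference in MTAL exceeded that in CTAL by 0.61 (SE 0.15) on the log2 scale. Without the pools with *Xist* the genotype differences were 1.30 (SE 0.24) in MTAL, from pool 13 alone on the WT side, and 0.55 (SE 0.12) in CTAL. No annotated gene overlaps *Kl*.

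**Figure D3:**
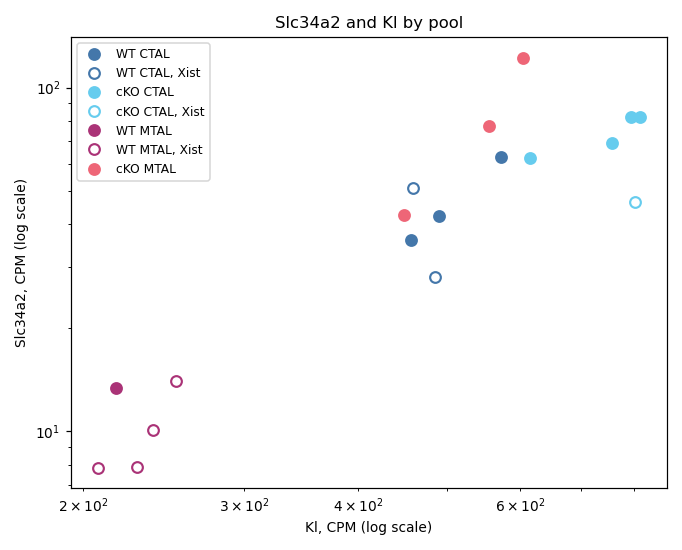
*Slc34a2* level in CPM (y axis, log scale) against *Kl* level in CPM (x axis, log scale), with 1 dot for each of the 18 pools, coloured by group and open for the pools with *Xist*. The 5 WT MTAL pools lie apart at the lower left, and the cKO MTAL pools, at 448 to 605 CPM of *Kl*, reach to both sides of the WT CTAL pools, at 456 to 573 CPM.

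Over the 18 pools the log2 levels of *Kl* and *Slc34a2* had a Pearson r of 0.92, the highest of the 28 pairs of members. The points share group, library and normalization, and the WT MTAL pools lie apart on both axes, so that the value describes the 4 groups more than the pools within them. *Fgfr1* followed with r of 0.82 with *Kl* and 0.80 with *Slc34a2*. Among 12578 other genes, those closest to *Kl* by r over the 18 pools were *Pth1r* (0.97), *Pamr1* (0.97) and *Cd9* (0.97). Those closest to *Slc34a2* were *Tubb2b* (0.94), *Wfdc2* (0.94) and *Slco2a1* (0.94). The genes closest to *Slc34a1* were *Acsm2* (0.93), *Cyp2e1* (0.92) and *Miox* (0.88), of which *Cyp2e1* and *Miox* are in the list of proximal tubule markers.

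*Fgfr1*, a receptor that binds FGF23 together with Klotho, was at 61.2, 65.6, 65.3, 64.4 and 62.5 CPM in WT CTAL and at 62.3, 62.0, 62.5, 61.2 and 69.9 CPM in cKO CTAL. These groups had nearly the same range, with a log2 fold change of -0.02 (SE 0.07). In WT MTAL it was at 49.6, 34.7, 44.6, 39.2 and 41.6 CPM, below every CTAL pool, and WT MTAL differed from WT CTAL by a log2 fold change of -0.61 (SE 0.10). In cKO MTAL it was at 44.0, 54.3 and 78.7 CPM, from within the WT MTAL range to above the highest CTAL pool. The log2 fold change of cKO MTAL over WT MTAL was 0.50 (SE 0.18), and it became 0.24 without cKO MTAL pool 20. That pool was also where TPM and CPM of this gene diverged most, with 62.5 TPM at 78.7 CPM. The genes closest to *Fgfr1* over the pools were *Tmem45b* (r 0.92), *D630023O14Rik* (0.91) and *Fads1* (0.90).

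*Fgfr3*, another FGF receptor, was close to the limit of what was tested, with 20 to 382 counts per pool. Its means were 3.35 ± 1.80 (SD, n = 5), 2.996 ± 0.536 (SD, n = 5), 3.02 ± 2.57 (SD, n = 5) and 4.21 ± 0.348 CPM (SD, n = 3) in WT CTAL, cKO CTAL, WT MTAL and cKO MTAL. It did not pass the filter for the comparison of WT MTAL with WT CTAL. The cKO MTAL pools, at 3.82 to 4.49 CPM, were above the cKO CTAL pools, at 2.28 to 3.66 CPM, and all other pairs of groups overlapped. The log2 fold changes had SEs of 0.30 to 0.54, so that differences were hardly detectable at this depth. Closest to it by r were *Dgka* (0.78), *Rars2* (0.77) and *Fastkd3* (0.76).

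**Figure D4:**
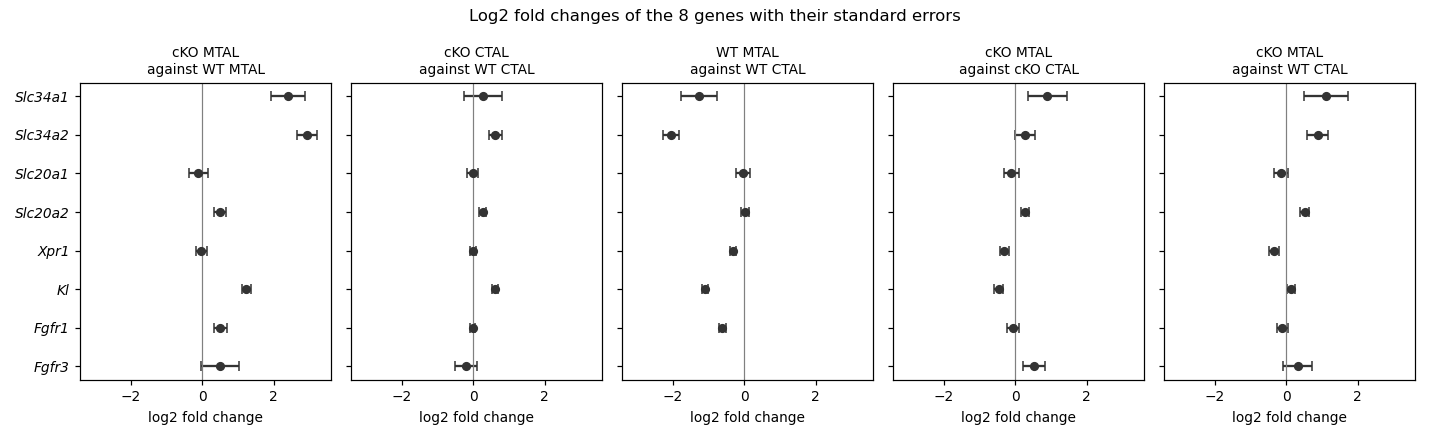
Log2 fold change (x axis) of each of the 8 genes (y axis) in the 5 comparisons of 2 groups, with bars of 1 SE from the edgeR fits. *Slc34a2* and *Kl* lie to the right of 0 in both genotype comparisons and to the left of 0 in WT MTAL against WT CTAL, where *Fgfr3* was not tested and has no point.

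Counted by an adjusted p under 0.05 in the edgeR fits, 3 of the 8 genes differed between cKO MTAL and WT MTAL (*Slc34a2*, *Slc34a1* and *Kl*, all higher in cKO), where 7.01% of the 12060 genes tested did. Between cKO CTAL and WT CTAL it was *Kl* alone, with 1.22% of 11702 genes. Between WT MTAL and WT CTAL they were *Slc34a2*, *Kl* and *Fgfr1*, all lower in MTAL, of 7 tested, with 6.87% of 11650 genes. Groups did not overlap for 14.4%, 3.09%, 7.37%, 10.1% and 11.8% of the genes tested between cKO MTAL and WT MTAL, cKO CTAL and WT CTAL, WT MTAL and WT CTAL, cKO MTAL and cKO CTAL, and cKO MTAL and WT CTAL. Nothing is read from these counts, since the genes were proposed with such values in view. By edgeR, none of the 8 passed between cKO MTAL and cKO CTAL (background 1.75%) or between cKO MTAL and WT CTAL (background 2.50%), while 3 had an unadjusted p under 0.05 in each. The background of the former was 17.7%. In the latter *Slc34a2* and *Slc20a2* were higher and *Xpr1* lower in cKO MTAL, where 11.9% of all genes were higher and 8.03% lower at that threshold. DESeq2 with its likelihood ratio test counted 1 in each. *Slc34a2* alone passed where the effect of genotype was compared between segments, with 0.286% of 12586 genes.

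Without the pools with *Xist*, none of the 8 passed the adjusted threshold in either genotype comparison, and among all genes 0 passed in MTAL, where a single WT pool was left. In WT MTAL against WT CTAL *Slc34a2*, *Kl* and *Fgfr1* kept log2 fold changes of -1.81, -1.22 and -0.88 there. With all pools and a term for *Xist* the log2 fold changes of cKO MTAL over WT MTAL were 2.61 (SE 0.32) for *Slc34a2* and 1.24 (SE 0.14) for *Kl*.

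Of the other genes of these pathways, 78 were listed in 8 groups. In cKO MTAL against WT MTAL 56 of them were tested and 5 passed an adjusted p under 0.05 in the edgeR quasi-likelihood test, all higher in cKO, against 7.01% of all genes. The median log2 fold change of the 56 was 0.10 and that of all genes tested 0.00. In cKO CTAL against WT CTAL 3 of 55 passed, against 1.22% of all genes, and in WT MTAL against WT CTAL 7 of 51, against 6.87%. The list was written with earlier results of these pools known.

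Of the 5 genes that passed in MTAL, 3 were in the PTH and vitamin D group. *Pth1r*, the PTH receptor, was at 305, 241, 296, 195 and 243 CPM in WT CTAL and at 468, 454, 501, 434 and 388 CPM in cKO CTAL. In WT MTAL it was at 68.4, 63.2, 43.6, 44.5 and 52.5 CPM and in cKO MTAL at 185, 338 and 303 CPM. Within each segment the genotypes were separate. *Pth1r* rose in cKO MTAL by a log2 fold change of 2.35 (SE 0.19, edgeR adjusted p = 7.52e-06) and in cKO CTAL by 0.80 (SE 0.11, edgeR adjusted p = 0.00236). The difference between these effects was 1.53 (SE 0.23, edgeR adjusted p = 0.00356). Without the pools with *Xist* the call in CTAL was lost (edgeR adjusted p = 0.0711). *Pth1r* was lower in WT MTAL than in WT CTAL, with a log2 fold change of -2.23 (SE 0.15, edgeR adjusted p = 1.13e-07). Its r of 0.97 with *Kl* over the pools was the highest found for any member.

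*Vdr*, the vitamin D receptor, and *Casr*, the calcium-sensing receptor, took the same order of groups in MTAL. *Vdr* was at 61.6 to 72.3 CPM in WT MTAL and at 113, 117 and 153 CPM in cKO MTAL, which gave a log2 fold change of 0.90 (SE 0.13, edgeR adjusted p = 0.000456). *Casr* was at 419 to 529 CPM in WT MTAL and at 696, 795 and 802 CPM in cKO MTAL, which gave a log2 fold change of 0.70 (SE 0.11, edgeR adjusted p = 0.00143). Both were lower in WT MTAL than in WT CTAL, by -1.16 (SE 0.12, edgeR adjusted p = 8.65e-06) and -0.99 (SE 0.09, edgeR adjusted p = 4.63e-06) on the log2 scale. In CTAL their genotype differences were 0.28 (SE 0.11) and 0.20 (SE 0.08) and did not pass. *Casr* was lower in cKO MTAL than in cKO CTAL, by -0.47 (SE 0.10, edgeR adjusted p = 0.031), a call that 9 of 23 alternative settings lost. *Cyp27b1* and *Cyp24a1*, which make and degrade active vitamin D, stayed under 0.6 CPM in every pool.

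Among the other receptors, *Fgfr4* was at 6.41 to 11.3 CPM in WT MTAL and at 14.8, 20.6 and 27.5 CPM in cKO MTAL, without overlap. It rose there by a log2 fold change of 1.36 (SE 0.27, edgeR adjusted p = 0.00727), and was lower in WT MTAL than in WT CTAL by -1.08 (SE 0.19, edgeR adjusted p = 0.00153). On log2(TPM + 0.5) with limma, however, the former was 0.88 (adjusted p = 0.316) and the latter -0.55 (adjusted p = 0.508). *Fgfr2*, at 61.3 to 96.8 CPM, and the decoy receptor *Fgfrl1*, at 8.63 to 14.9 CPM, did not pass in any comparison. *Klb*, the Klotho-related co-receptor of the endocrine FGFs of gut and liver, did not exceed 0.0809 CPM.

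**Figure D5:**
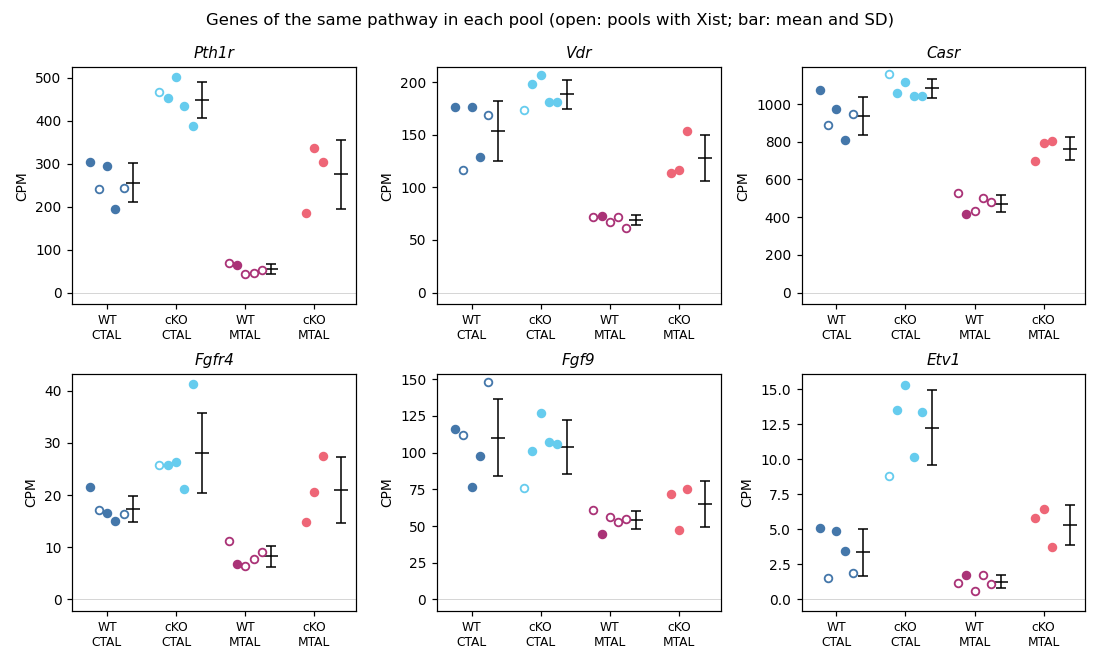
Level in CPM (y axis, linear) of 6 genes of the same pathways in every pool of the 4 groups (x axis). Each dot is a pool, open dots are the pools with *Xist*, and the black bar gives the mean and SD. *Pth1r*, *Vdr*, *Casr* and *Fgfr4* are lowest in WT MTAL and higher in all 3 cKO MTAL pools, while *Fgf9* overlaps between the MTAL groups.

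Of 10 FGF ligands, 2 were expressed above the filter. *Fgf1* was at 265 to 389 CPM over the 18 pools and passed in no comparison. *Fgf9* was lower in WT MTAL, at 44.5 to 61.1 CPM, than in WT CTAL, at 76.6 to 148 CPM, with a log2 fold change of -1.03 (SE 0.14, edgeR adjusted p = 0.000176), and its MTAL groups overlapped. *Fgf23* had no read in any pool, as its known source is bone. None of the 15 genes of the signalling cascade downstream of the receptors passed in any comparison by edgeR, where 0.286% to 7.01% of all genes did. At most 2 had an unadjusted p under 0.05 in a comparison. These 2 were in WT MTAL against WT CTAL, where 19.1% of all genes were under that threshold.

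Of the 13 target and feedback genes of FGF receptors, 11 were tested in each genotype comparison. Of these 1 passed in MTAL, against 7.01% of all genes, and 2 in CTAL, against 1.22%. *Etv1*, a transcription factor, was at 1.51 to 5.10 CPM in WT CTAL and at 8.82 to 15.3 CPM in cKO CTAL, and at 0.611 to 1.75 CPM in WT MTAL against 5.81, 6.42 and 3.73 CPM in cKO MTAL. It rose in both segments, by 1.81 (SE 0.30, edgeR adjusted p = 0.00776) in CTAL and 2.04 (SE 0.44, edgeR adjusted p = 0.0105) in MTAL on the log2 scale. In the MTAL comparison the cKO MTAL pools alone reached the 3 CPM of the filter. *Etv1* thus entered that test only through the group where it was high, and its call in MTAL is a description. With a term for *Xist* the MTAL value was 1.35 (SE 0.385), and without the pools with *Xist* it no longer passed (edgeR adjusted p = 0.886). The WT CTAL pools with *Xist* had the lowest *Etv1* of that group, at 1.51 and 1.87 CPM, and the CTAL value without these pools was 1.53. Of its relatives, *Etv5* had means of 9.62 ± 2.08 (SD, n = 3) and 5.11 ± 1.47 CPM (SD, n = 5) in cKO MTAL and WT MTAL, without overlap, and its log2 fold change of 0.92 (SE 0.34) did not pass. *Etv4* was too low to be tested, with means of 1.42 and 0.536 CPM in these groups, also without overlap. *Egr1*, an immediate early gene, fell in cKO CTAL, with a log2 fold change of -0.94 (SE 0.21, edgeR adjusted p = 0.0397) although the groups overlapped and 15 of 25 alternative settings lost the call. *Egr1* was higher in cKO MTAL than in cKO CTAL by 1.38 (SE 0.17, edgeR adjusted p = 0.00146). In WT MTAL pool 11 *Egr1* reached 1169.6 CPM, where the other WT MTAL pools were at 282 to 447 CPM. *Etv5* was lower in WT MTAL than in WT CTAL, by -1.12 (SE 0.27, edgeR adjusted p = 0.0162). The median log2 fold change of the genes tested was -0.03 in cKO MTAL over WT MTAL and -0.07 in cKO CTAL over WT CTAL.

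Among 18 genes of phosphate transport and sensing, *Ppip5k1*, which makes inositol pyrophosphates, was at 164 to 172 CPM in WT MTAL and at 123 to 141 CPM in WT CTAL. It was higher in WT MTAL by 0.37 (SE 0.07, edgeR adjusted p = 0.00441) on the log2 scale, a call that 4 of 25 alternative settings lost. No other gene of this group passed in any comparison by edgeR, while 7 of 14 had an unadjusted p under 0.05 in cKO MTAL against WT MTAL, where 23.6% of all genes did. Of these 7, *Slc9a3r2* and *Ppip5k1* were lower in cKO MTAL and the others higher. *Pdzk1*, among the higher, was at 10.8 CPM or more only in the pools named above as highest in proximal tubule markers. *Slc34a3*, the remaining cotransporter of the *Slc34* family, did not exceed 0.668 CPM. The 3 tested proteases of Klotho shedding (*Adam10*, *Adam17* and *Bace1*) and the tested genes of FGF23 processing (*Fam20c*, *Furin* and *Galnt3*) passed in no comparison by edgeR.

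The summed levels of other markers also differed between the MTAL groups, without overlap. The summed CPM of 6 tubular injury markers was 2011.5 to 8132 in cKO MTAL and 1032 to 1259.6 in WT MTAL. That sum was carried by *Spp1*, with means of 3949 and 1100 CPM. *Vcam1* alone of the 6 had a lower mean in cKO MTAL, 4.74 against 6.99 CPM. The summed CPM of 8 TAL markers was 67881 to 80245 in cKO MTAL and 51018 to 62413 in WT MTAL. The sum of TAL markers was carried by *Umod*, which encodes uromodulin, with means of 44955 and 28433 CPM, while 2 of the 8 were lower in cKO MTAL without overlap. These were *Cldn10*, the targeted gene, and *Slc12a1*, which was at 11424 to 14645 CPM in cKO MTAL and 14822 to 16145 CPM in WT MTAL. The 6 distal convoluted tubule markers summed to 15.5 to 34.2 CPM in cKO MTAL and 6.86 to 14.96 CPM in WT MTAL, and the 7 fibroblast and pericyte markers to 56.4 to 73.3 and 39.5 to 56.0 CPM. Both sums were separate by a narrow gap. The fibroblast and pericyte markers went both ways. Of the 5 tested, 2 were higher in cKO MTAL without overlap and 1, *Pdgfrb*, was lower without overlap. The summed CPM of 7 endothelial markers was 160.3 to 267 in cKO MTAL and 273 to 426 in WT MTAL, with 4 of the 7 lower in cKO by edgeR. The part of these differences in the levels of *Slc34a2*, *Kl* and *Pth1r* was not tested.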

How the data were processed

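RNA of 18 pools of microdissected tubules was sequenced after poly-A selection with a strand-specific kit, as paired-end reads. The authors trimmed the reads, mapped them to mm10 with DRAGEN and deposited estimated counts per gene, which are not normalized and of which 92.07% are whole numbers. The trimming tool is fastp in the study's methods and Trimmomatic in the submitters' processing notes. The authors also deposited TPM, which correct for transcript length and sum to 1 fixed total. The settings for strand and for reads that map to several genes are not given in the sources used here. Pools excluded by the study were not analysed here.

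The 8 genes and the lists of pathway and marker genes were chosen with earlier results of these data known. Estimated counts were rounded. A gene entered a test if 5 pools, or 3 in comparisons that include cKO MTAL, reached 3 CPM. Each pair of groups was fitted separately with edgeR (4.0.16, under R 4.3.3) by its quasi-likelihood test, with TMM factors and Benjamini-Hochberg adjustment over the genes tested, and calls were made at an adjusted p under 0.05. The change of the genotype effect with segment was fitted in all 18 pools. SEs were taken from the fold change and its F statistic. The steps were tested on simulated counts. The tests of single proximal tubule markers are not reported here.

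By the rule for named genes, pathway genes were named if they passed and changed by 1 or more on the log2 scale in either direction, or with the widest change of their list, along with the 3 genes of highest Pearson r with a member in log2(CPM + 1), the targeted gene, and markers where a result turned on them. *Casr* outside cKO MTAL against cKO CTAL, and the pathway genes that passed in no comparison, were named after their values had been seen. Alternatives were DESeq2 (1.42.0), limma (3.58.1) on log2(TPM + 0.5) and log2(TPM + 0.1), other scalings, filters and covariates, and omission of pools. Terms for proximal tubule and principal cell markers, and omission of the pools with *Xist*, were added after seeing the data. Since every pool is from another mouse, p-values cover the spread between animals together with that of dissection.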

Additional observations from a re-analysis of the deposited data

Results flagged for a closer look

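In 24 groups of 5 pools, a single pool stood apart from the others by the gap between it and its neighbour (Dixon's criterion) in 6, where chance gives about 1 in 20. *Slc34a1* was at 25.9 CPM in WT CTAL pool 22, with the others at 3.39 to 5.63 CPM, in the pool that was highest of its group in proximal tubule markers. *Slc20a2* was at 34.5 CPM in cKO CTAL pool 7, below the others at 38.9 to 40.4 CPM, and at 39.7 CPM in WT MTAL pool 19, above the others at 29.3 to 31.5 CPM. *Kl* was at 615 CPM in cKO CTAL pool 9, below the others at 756 to 812 CPM. *Fgfr1* was at 69.9 CPM in cKO CTAL pool 21, above the others at 61.2 to 62.5 CPM. *Fgfr3* was at 7.51 CPM in WT MTAL pool 19, above the others at 1.02 to 2.43 CPM.

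In the interaction fit of all 18 pools, 2 of the members and pathway genes were flagged by an adjusted p under 0.05. Both had been chosen with earlier results of these pools known, so that the flag is a description. The genotype effect was larger in MTAL by 2.29 on the log2 scale for *Slc34a2* and by 1.53 for *Pth1r* (edgeR adjusted p = 0.00356). Neither passed without the pools with *Xist*, when WT MTAL was left with a single pool.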

How the results depend on the processing

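The number of the 8 genes with an adjusted p under 0.05 depended on the processing in all 6 fits. In cKO MTAL against WT MTAL it was 3, a count that 11 of 22 alternatives met. It was 5 in a single fit of all 18 pools and with a term for *Xist* (adding *Slc20a2* and *Fgfr1*). *Slc34a1* lost its call in 7 of the 22 alternatives, and *Slc20a2* stayed uncalled in 15 of them. In cKO CTAL against WT CTAL it was 1, but 2 with either DESeq2 test and with WT CTAL pool 1 counted as cKO (adding *Slc34a2*), 0 without the pools with *Xist*, and 1 to 2 when single pools were left out, the 2 being without WT CTAL pool 1. In cKO MTAL against cKO CTAL it was 0, but 1 (*Kl*) with either DESeq2 test, the likelihood ratio test of edgeR, no filter on low counts, the single fit, and terms for *Xist*, proximal tubule markers or principal cell markers, and 0 to 1 when single pools were left out (*Xpr1* without cKO MTAL pool 18). In cKO MTAL against WT CTAL it was 0, but 1 with either DESeq2 test, total counts, no filter, the single fit and each of the 3 terms, 2 with the likelihood ratio test of edgeR (*Slc34a2* and *Slc20a2*), and 0 to 1 when single pools were left out (without WT CTAL pool 22, cKO MTAL pool 16 or cKO MTAL pool 20). For the change of the genotype effect with segment it was 1, but 2 (adding *Kl*) with either DESeq2 test, the likelihood ratio test of edgeR, total counts and the term for proximal tubule markers, 0 without the pools with *Xist*, and 1 to 2 when single pools were left out (2 without WT MTAL pool 11, cKO MTAL pool 16 or cKO MTAL pool 18). The cause was not tested, except that leaving out the pools with *Xist* leaves a single WT MTAL pool. In WT MTAL against WT CTAL the count of 3 was met in 17 of 25 alternatives and ranged from 2 to 4.

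Over all genes, the calls in cKO MTAL against WT MTAL ranged from 0 without the pools with *Xist* to 2136 in the single fit (845 as reported), in cKO CTAL against WT CTAL from 17 to 366 (143), in WT MTAL against WT CTAL from 270 to 1080 (800), in cKO MTAL against cKO CTAL from 13 to 835 (211), in cKO MTAL against WT CTAL from 26 to 826 (300) and for the interaction from 0 to 570 (36). Counts of the pathway genes ranged from 0 to 10, 1 to 5, 4 to 8, 0 to 7, 0 to 4 and 0 to 3 in the same order. Log2(TPM + 0.5) moved the median of all genes by 0.20 in cKO MTAL against WT MTAL, 0.13 in cKO CTAL against WT CTAL and 0.15 in cKO MTAL against WT CTAL.

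Over all alternatives the log2 fold change in cKO MTAL against WT MTAL stayed between 2.51 and 3.24 for *Slc34a2*, 1.14 and 1.41 for *Kl* and 2.13 and 2.57 for *Pth1r*. That of *Slc34a1* ranged from 0.90 to 3.13 and that of *Fgfr1* from 0.24 to 0.78. No paired analysis was possible because the groups share no replicate number, all pools being from different mice. Depth limits *Fgfr3* and *Slc34a1*, which had as few as 20 and 30 counts in a pool.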
